A study of Mus musculus with 6 samples.

Results

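Transcripts of 9 leukocyte adhesion genes were followed in bone marrow neutrophils of naive mice and of mice carrying LL2 lung tumors for 1 or 3 weeks. The genes were taken as a list by their role in adhesion. They are the integrin alpha subunits Itgam, Itgal, Itgax and Itga4, the beta subunit Itgb2 and its relative Itgb2l, the selectin ligand Selplg, the hyaluronan receptor Cd44 and the integrin ligand Icam1. All 9 were found among 38887 gene identifiers and all 9 passed the filter on low counts, which left 12259 genes for testing. Cells were pulled out of marrow with magnetic beads against Ly6G, and total RNA was sequenced in 2 libraries in each of the 3 groups, which the labels name as naïve, week 1 LL2 TB and week 3 LL2 TB mice. TB stands for tumor-bearing. LL2 is a Lewis lung carcinoma line of C57BL/6 origin, given here as a luciferase-expressing derivative by intravenous injection, so that tumors form in the lung. Naive mice received no tumor cells. The labels give no strain, sex or age for single libraries, and the methods name C57BL/6 mice in general. Each label names a mouse and a replicate number, and does not state whether the replicates of a group are different mice. The question behind the design is how neutrophils differ between an early and an advanced stage of tumor growth.

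Neutrophils leave the blood in steps. PSGL-1, the protein of Selplg, and CD44 carry sugar structures that selectins on the vessel wall catch, so that the cell rolls. Signals from chemokines and from PSGL-1 itself then switch the beta 2 integrins to their binding form. These are pairs of the Itgb2 product CD18 with CD11a (Itgal, together LFA-1), CD11b (Itgam, together Mac-1) or CD11c (Itgax), and they bind ICAM-1 and related ligands. In the marrow, the alpha 4 integrin (Itga4, paired with the products of Itgb1 or Itgb7) holds immature cells to stroma that carries VCAM-1. Itgb2l encodes pactolus, a CD18-like protein of marrow neutrophils that is not known to pair with an alpha subunit.

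Sequence features of the integrin members are shown first because the alpha and beta subunits share control elements in their tails. Each alpha subunit has, just inside the membrane, the residues glycine, phenylalanine, phenylalanine, lysine and arginine, which clasp the beta tail while the integrin is at rest. The matching 15 bases are in capitals in these 45-base coding stretches, read from GENCODE M21 transcripts of the GRCm38 mouse genome (bases 3488 to 3532 of Itgam-201, 3500 to 3544 of Itgal-201, 3479 to 3523 of Itgax-201 and 3155 to 3199 of Itga4-201).
Itgam: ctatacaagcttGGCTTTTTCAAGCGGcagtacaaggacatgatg
Itgal: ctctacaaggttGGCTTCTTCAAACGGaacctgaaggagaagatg
Itgax: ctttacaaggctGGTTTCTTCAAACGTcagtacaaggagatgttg
Itga4: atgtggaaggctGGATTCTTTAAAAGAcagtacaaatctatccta
The beta tail carries 2 copies of the pattern asparagine, proline, any residue, phenylalanine, where talin and kindlin-3 dock to activate the integrin. They are in capitals in the last 60 coding bases of Itgb2-201. The last 60 coding bases of Itgb2l-201 have no copy, nor have its last 90 codons.
Itgb2: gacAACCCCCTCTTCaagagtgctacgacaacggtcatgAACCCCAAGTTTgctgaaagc
Itgb2l: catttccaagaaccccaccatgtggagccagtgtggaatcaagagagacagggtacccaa

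The totals lay between 11994158 and 14127919 counts per library. Levels are given as CPM, counts scaled to a common library size by the library totals and their TMM factors, and 3 counts, taken as the detection floor, correspond to between 0.2003 and 0.2456 CPM. Replicate libraries differed by more than counting noise, with chi-square values of 9.04 to 12.6 for each degree of freedom. Neutrophil markers summed to between 288094 and 352405 CPM in every library, with S100a8 the most abundant. Ly6g, which encodes the selected antigen, was listed at only 0.491 to 2.14 CPM, so this gene itself was a poor check of the label. Of the 12 neutrophil markers, 2 were called higher and 3 lower in week 3 LL2 mice than in naive mice. Camp, Ltf and Ngp, granule protein genes of maturing neutrophils, were the lower ones (log2 fold changes of -1.04, -0.64 and -0.51), and Cxcr2 and Retnlg were higher (0.70 and 0.44). The Ngp call was lost without naive replicate 2 or week 3 replicate 1 (edgeR adjusted p up to 0.0717), that of Cxcr2 without naive replicate 1 (0.0569), and that of Retnlg under 3 other settings (up to 0.159). All 10 early granulocyte genes differed at week 3, with 5 higher, such as Mpo at 2.30, and 5 lower, such as Chil3 at -0.79. The summed erythroid markers were 1319 CPM in one week 3 library and 563 CPM in the other.

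The test was edgeR's quasi-likelihood fit to the 6 libraries together, with the group as its factor. A gene was called changed when its Benjamini-Hochberg adjusted p over the 12259 genes was under 0.05. In week 1 LL2 mice 7.99% of all genes tested were called against naive mice (4.23% higher and 3.76% lower), and 0 of the 9 adhesion genes were. In week 3 LL2 mice 21.4% of genes were called against naive mice (12% higher and 9.42% lower), and 2 of the 9 adhesion genes were, Selplg higher and Itgax lower. Between week 3 and week 1, 22.5% of genes were called (12.9% higher and 9.57% lower), and 3 of the 9, Selplg and Itgam higher and Itgax lower. A share of 2 or 3 of 9 lay near these backgrounds. The median log2 fold change of the 9 genes was -0.09, -0.09 and 0.02 in the 3 comparisons, beside 0.01, 0.03 and -0.02 over all genes tested. The 3 comparisons share libraries and are not independent of each other. Levels in RNA from selected cells cannot tell fewer cells of a type from less RNA per cell.

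**Figure D1:**
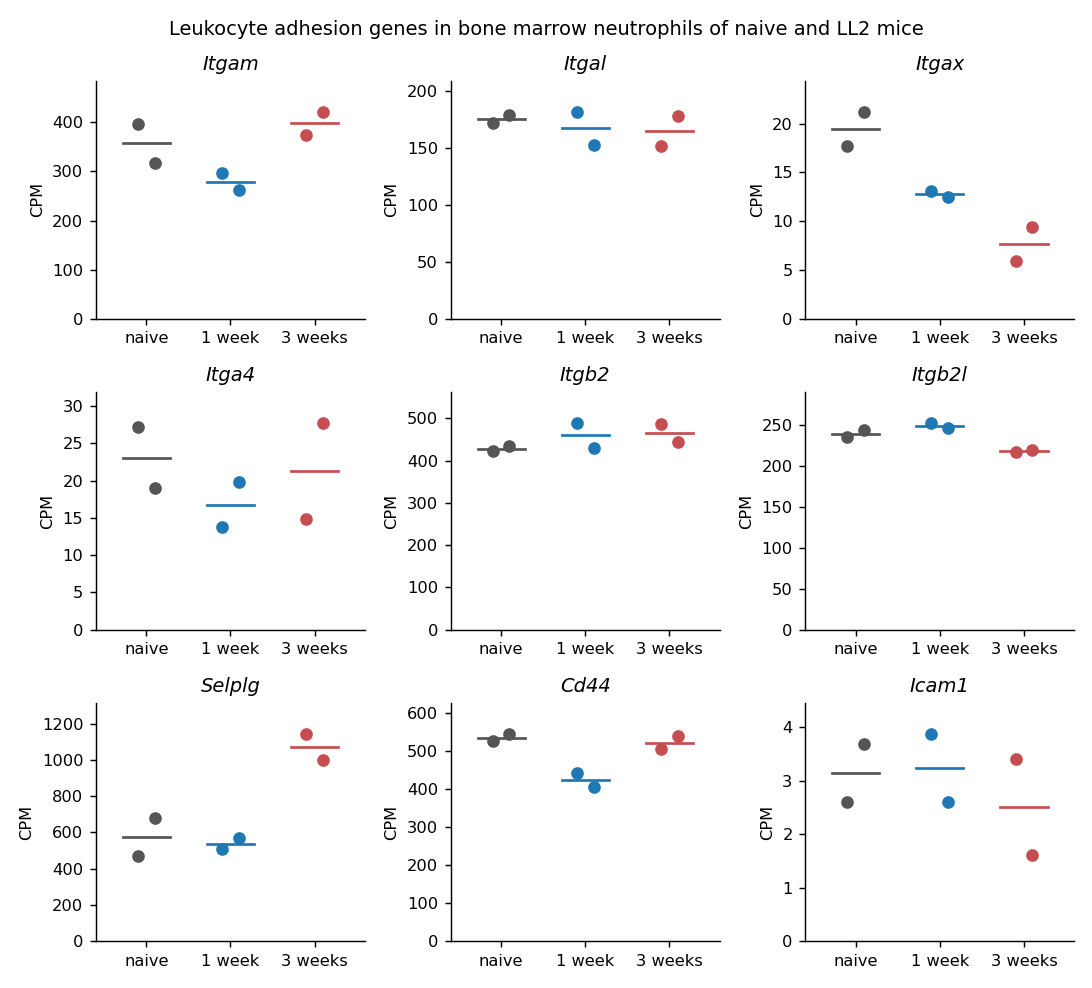
Level of each adhesion gene in CPM (linear axis from 0) by group; points are the 2 libraries of a group and lines their mean. Selplg reached 1142 and 1001 CPM in week 3 LL2 mice, above the 467 to 679 CPM of the other 4 libraries, and Itgax fell from 17.7 and 21.2 CPM in naive mice to 5.89 and 9.38 CPM at week 3.

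Selplg, on mouse chromosome 5 (chr5:113818536-113832644, minus strand, GRCm38), had the largest rise among the 9. Its levels were 467 and 679 CPM in naive mice, 510 and 566 CPM in week 1 LL2 mice, and 1142 and 1001 CPM in week 3 LL2 mice. Both week 3 libraries were higher than the other 4 libraries, while naive and week 1 libraries overlapped. The rise against naive mice was 1.87-fold (log2 0.90 ± 0.16, SE, edgeR adjusted p = 0.00122). Against week 1 LL2 mice it was 1.99-fold (log2 0.99 ± 0.16, edgeR adjusted p = 0.00057). At week 1 the log2 fold change against naive mice was -0.09, with a 95% interval from -0.43 to 0.25 that excluded a change of the size seen at week 3. Both week 3 calls held in every alternative processing and without any single library, with log2 values against naive mice from 0.63 to 1.21.

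Among the alpha subunits, Itgam, at chr7:128062640-128118491 on the plus strand, was the most abundant. CD11b, its product, is the marker by which neutrophils are usually gated together with Ly6G. It stood at 398 and 317 CPM in naive mice, 296 and 262 CPM at week 1, and 375 and 421 CPM at week 3. Both week 1 libraries lay below the other 4, whereas naive and week 3 libraries overlapped. Itgam was 1.43-fold higher at week 3 than at week 1 (log2 0.51 ± 0.13, edgeR adjusted p = 0.0136). Neither time point differed from naive mice by the test, with log2 fold changes of -0.36 (95% interval -0.64 to -0.07, edgeR adjusted p = 0.116) at week 1 and 0.16 (-0.13 to 0.44, edgeR adjusted p = 0.445) at week 3. The call between week 3 and week 1 was lost without week 1 replicate 2 (edgeR adjusted p = 0.168), without week 3 replicate 2 (0.0709), and when libraries were scaled by their totals alone (log2 0.31, edgeR adjusted p = 0.132).

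Itgax, which follows Itgam on the same strand at chr7:128129547-128150657, moved the other way. CD11c, its product, is best known from dendritic cells and is also found on myeloid cells at low level. The gene was at 17.7 and 21.2 CPM in naive mice, 13.1 and 12.5 CPM at week 1, and 5.89 and 9.38 CPM at week 3, or between 76 and 259 counts per library. The 3 groups did not overlap, with naive libraries highest and week 3 libraries lowest. At week 3 it was 2.54-fold lower than in naive mice (log2 -1.35 ± 0.21, edgeR adjusted p = 6.14e-04) and 1.67-fold lower than at week 1 (log2 -0.74 ± 0.22, edgeR adjusted p = 0.0252). The week 1 value against naive mice, log2 -0.61 (95% interval -1.04 to -0.17), missed the threshold at an adjusted p of 0.0846 in edgeR. The difference from naive mice at week 3 was called in every alternative and without any single library. The difference from week 1 was lost without week 1 replicate 1 (edgeR adjusted p = 0.0916), week 1 replicate 2 (0.0633) or week 3 replicate 1 (log2 -0.43, 0.222), and in DESeq2 on the groups compared (adjusted p = 0.0714).

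Markers of dendritic cells moved with Itgax in part. The 8 listed markers summed to between 121 and 135 CPM in naive mice, 128 and 136 CPM at week 1, and 85.7 and 87.1 CPM at week 3. Of the 6 that were tested, 2 were called lower at week 3 against naive mice and 0 higher. These were H2-Aa and H2-Ab1, genes of class II antigen presentation, and all 9 B cell markers were called lower as well. Flt3 was not called, at a log2 fold change of 0.05. Siglech was called lower at week 1 against naive mice (log2 -1.38, edgeR adjusted p = 0.0185), a call lost without naive replicate 1 or without either week 1 library. Unlike Itgax, it was called higher at week 3 than at week 1 (0.98, edgeR adjusted p = 0.0427), which held in 6 of 15 alternatives. Xcr1, the most abundant of the list, was at 47.9 and 42.7 CPM in naive mice and 39.6 and 48.6 CPM at week 3. No marker of the list was at 0 in every library. The part of dendritic cells or of B cells in the Itgax and class II values was not tested. Itgax also shares 384 of its 4790 windows of 50 transcript bases with Itgad, the neighboring alpha D subunit. Reads of 50 bases from these windows could be assigned to either gene. The labels give reads of 75 bases, for which sharing was not computed. Itgad stood at 17.6 and 10.6 CPM in naive mice, 16.5 and 13.3 CPM at week 1, and 25.3 and 17.2 CPM at week 3, with no call in any comparison of the main fit. At week 3 it was called higher than in naive mice in 4 of 15 alternatives (main log2 0.59). Against week 1 it was called higher in 2 of 15 (main log2 0.51). Among the 9 members and Itgad, no other of the 45 pairs shared such a window.

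For these 2 neighboring subunit genes, Itgam and Itgax, the 250 bases before each RefSeq start (GRCm38.p6, plus strand) were searched for 1 exact string. It was GAGGAA, a core of sites for PU.1, the ETS family factor of myeloid genes, or its reverse complement TTCCTC. Matches are in capitals. The Itgam window at chr7:128062390-128062639 holds 2 matches, starting 84 and 15 bases before the gene, and the Itgax window at chr7:128129300-128129549 holds 0.
Itgam: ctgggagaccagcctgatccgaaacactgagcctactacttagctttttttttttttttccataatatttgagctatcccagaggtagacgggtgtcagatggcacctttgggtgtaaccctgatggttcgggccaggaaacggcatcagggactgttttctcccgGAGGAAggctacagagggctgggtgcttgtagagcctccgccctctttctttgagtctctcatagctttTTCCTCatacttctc
Itgax: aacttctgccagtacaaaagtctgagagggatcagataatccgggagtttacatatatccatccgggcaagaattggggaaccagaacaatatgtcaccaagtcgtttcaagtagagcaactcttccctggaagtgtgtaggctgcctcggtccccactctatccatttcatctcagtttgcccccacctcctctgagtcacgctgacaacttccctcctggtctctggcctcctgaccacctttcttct
Of all 32851 promoter windows of this length, 23.3% hold a match, counted by window. Counted by gene, with a match in any of its windows, 3 of the 6 members with a window have one, Itgam, Cd44 and Itgb2l. The units differ, and the share over all genes is not given here. These matches are letters only, other forms of the site were not searched, and no binding was measured. A link between the matches and the levels of either gene was not tested. Selplg, Itgal and Itgb2 had no entry.

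The other 2 alpha subunits were not called. Itgal (chr7:127296260-127335138, plus strand), the LFA-1 subunit, had 172 and 179 CPM in naive mice, 182 and 153 CPM at week 1, and 152 and 178 CPM at week 3, with all groups overlapping. Its log2 fold changes were -0.07, -0.09 and -0.02 in the 3 comparisons, and the 95% interval at week 3 against naive mice ran from -0.36 to 0.18. Itga4 (chr2:79255426-79333123, plus strand) differed widely between replicates, at 27.1 and 19.0 CPM in naive mice, 13.8 and 19.8 CPM at week 1, and 14.9 and 27.7 CPM at week 3. Its week 3 libraries held the highest of the 6 values and the second lowest. The log2 fold change between week 3 and week 1 was 0.35 ± 0.27 (edgeR adjusted p = 0.375), and became 0.74 with a call (edgeR adjusted p = 0.0434) without week 3 replicate 1. Itga4 overlaps Cerkl on the opposite strand, and whether counting used the strand is not given in the sources used here.

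The beta subunits varied least among the 9, with ranges of 0.212 (Itgb2) and 0.218 (Itgb2l) in log2 CPM over the 6 libraries. Itgb2 (chr10:77530252-77565708, plus strand) had 422 and 435 CPM in naive mice, 489 and 431 CPM at week 1, and 488 and 444 CPM at week 3. The log2 fold changes were 0.10, 0.12 and 0.02, and the 95% interval at week 3 against naive mice ran from -0.13 to 0.37. Scaling by library totals alone turned the latter values to -0.03 and -0.19, still without a call. Itgb2l (chr16:96422288-96443619, minus strand) had 235 and 244 CPM in naive mice, 253 and 247 CPM at week 1, and 217 and 220 CPM at week 3. Its 3 groups did not overlap, with week 3 lowest, yet the log2 fold change between week 3 and week 1 was only -0.19 ± 0.11 (edgeR adjusted p = 0.225). With library totals alone this value was -0.39 and was called (edgeR adjusted p = 0.0182).

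Cd44 (chr2:102811141-102901665, minus strand) encodes the main receptor for hyaluronan and carries ligands for E-selectin. It had 526 and 545 CPM in naive mice, 443 and 407 CPM at week 1, and 505 and 540 CPM at week 3. The week 1 libraries lay below the other 4. The log2 fold change at week 1 against naive mice was -0.33 ± 0.11 (edgeR adjusted p = 0.0807) and that of week 3 against week 1 was 0.30 ± 0.11 (edgeR adjusted p = 0.0683), both short of the threshold. DESeq2 on all libraries called both, at adjusted p = 0.0295 and 0.0483. At week 3 against naive mice the log2 fold change was -0.04 (95% interval -0.27 to 0.20).

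Icam1 (chr9:21015985-21028817, plus strand) encodes the ligand of LFA-1 and Mac-1, best known from activated vessel walls. It had 33 and 45 counts in naive mice, 58 and 35 at week 1, and 44 and 21 at week 3, which is 1.62 to 3.87 CPM. The groups overlapped in all comparisons. The 95% interval at week 3 against naive mice ran from a log2 fold change of -1.21 to 0.56, so that a 2-fold fall was within the error at this depth.

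**Figure D2:**
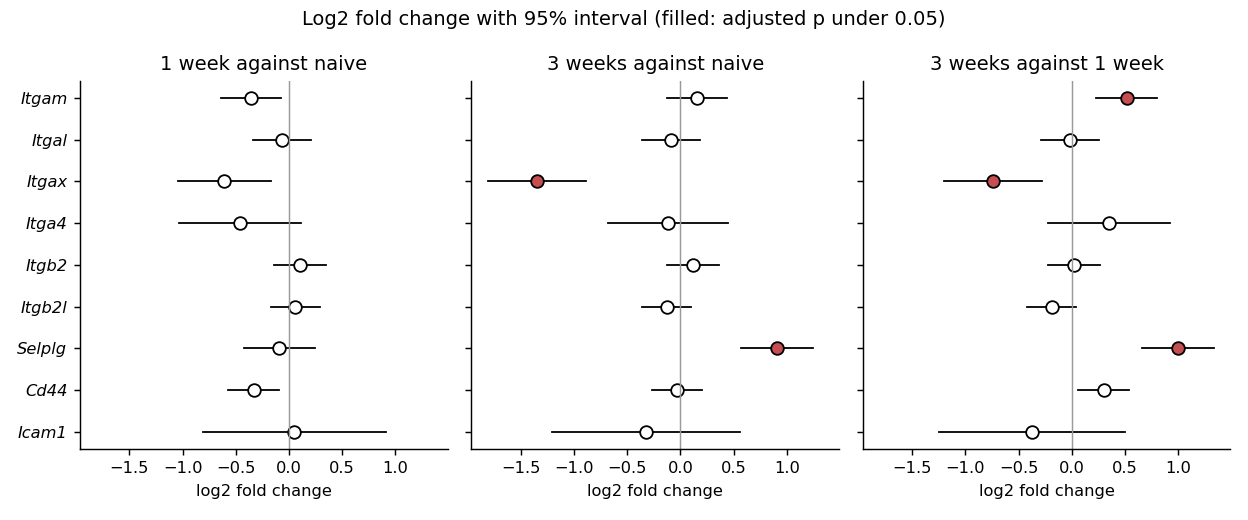
Log2 fold change of each adhesion gene (points) with its 95% interval (bars) in the 3 comparisons; filled points have an adjusted p under 0.05 in edgeR over all genes tested. Selplg at 0.90 and Itgax at -1.35 lie apart from 0 at week 3 against naive mice, and Itgam at 0.51 does so between week 3 and week 1.

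In 4 of the 9 genes the libraries did not overlap between week 1 and naive mice (Itgam, Itgax, Itgb2l and Cd44), where 53.2% of all genes tested did not. At week 3 against naive mice 4 of 9 did not overlap (Itgax, Itgb2, Itgb2l and Selplg) against 59.6% of all genes, and between week 3 and week 1 the number was 5 of 9 (Itgam, Itgax, Itgb2l, Selplg and Cd44) against 63.8%. With 2 libraries a group, such separation was common and was no result about the adhesion genes.

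Levels of different genes were compared as CPM per kilobase of the gene's merged exons. In naive mice the order was Itgb2 at 140 ± 3.05 (SD, n = 2), Selplg at 134 ± 35.2, Cd44 at 79.0 ± 1.98, Itgam at 71.1 ± 11.3, Itgb2l at 55.4 ± 1.41, Itgal at 26.7 ± 0.805, Itgax at 4.05 ± 0.512, Itga4 at 1.65 ± 0.412 and Icam1 at 0.722 ± 0.174. Itgb2 and Selplg overlapped, as did Cd44 and Itgam, and the other neighbors in this order did not overlap. At week 3 Selplg came first, at 251 ± 23.2 CPM per kilobase, above Itgb2 at 153 ± 10.2, with Itgam at 79.3 ± 6.46 and Cd44 at 77.1 ± 3.67 next. Itgax at 1.59 ± 0.513 then overlapped Itga4 at 1.52 ± 0.647. The order depended on the length used. Per kilobase of the longest transcript, Selplg was first in naive mice too, at 248 against 144 for Itgb2, and Itgb2l at 85.4 passed Itgam at 76.3.

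Ratios of counts within a library do not depend on scaling between libraries. Itgam to Itgb2 was 0.942 and 0.729 in naive mice, 0.606 and 0.607 at week 1, and 0.770 and 0.949 at week 3. The week 1 libraries thus had the lowest share of CD11b to CD18 transcripts. Itgax to Itgb2 was 0.0420 and 0.0487 in naive mice, 0.0268 and 0.0289 at week 1, and 0.0121 and 0.0211 at week 3, with no overlap between groups. Itgb2l to Itgb2 was 0.558 and 0.561 in naive mice, 0.517 and 0.572 at week 1, and 0.446 and 0.497 at week 3, with week 3 libraries below the others. Itgal to Itgam was 0.432 and 0.565 in naive mice, 0.613 and 0.584 at week 1, and 0.404 and 0.422 at week 3. The ratios are given as a description and were not tested. An exact permutation test of 2 against 2 libraries could not go below a p of 0.333.

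Genes that act with the adhesion members were taken from 6 lists by role, with 90 of 116 genes tested. In all, 1 was called higher and 5 lower at week 1 against naive mice (6.67%), 14 higher and 18 lower at week 3 against naive mice (35.6%), and 20 higher and 13 lower between week 3 and week 1 (36.7%), beside 7.99%, 21.4% and 22.5% of all genes tested. The genes that prepare PSGL-1 for selectins and link it to the cytoskeleton are given first.

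PSGL-1 binds selectins through sugar chains that are branched, sialylated and fucosylated. Binding to P-selectin also draws on sulfation at its outer end, away from the membrane. Of 15 tested genes for selectins and the synthesis of their ligands, 3 were higher and 1 lower at week 3 against naive mice. Between week 3 and week 1, 5 were higher and 1 lower. Beside Gcnt1 and St3gal4, the other gene higher against naive mice was the selectin gene Selp (log2 0.86, edgeR adjusted p = 0.0152). That call held in 11 of 15 alternatives. Gcnt1, the enzyme that starts the branch, had 83.1 and 90.5 CPM in naive mice, 69.3 and 65.1 CPM at week 1, and 180 and 190 CPM at week 3. Its rise at week 3 was 2.13-fold over naive mice (log2 1.09 ± 0.11, edgeR adjusted p = 2.89e-05) and 2.75-fold over week 1 (log2 1.46 ± 0.12). St3gal4, a sialyltransferase of selectin ligands, rose from 20.02 and 24.7 CPM in naive mice to 48.9 and 51.4 CPM at week 3, 2.24-fold (log2 1.17 ± 0.16, edgeR adjusted p = 2.02e-04), and had 18.8 and 14.8 CPM at week 1. Like Selplg, these 2 enzymes were higher in both week 3 libraries than in the other 4, and both were called at week 3 in every alternative and without any single library.

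Not every step of the same synthesis rose. Fut7, the fucosyltransferase that completes the selectin-binding sugar, had 19.2 and 23.0 CPM in naive mice, 23.4 and 22.9 CPM at week 1, and 15.9 and 15.0 CPM at week 3, lower at week 3 than at week 1 (log2 -0.58, edgeR adjusted p = 0.0148), a call lost without either week 1 library or without week 3 replicate 2 (up to 0.0812). The tyrosine sulfotransferase Tpst2 was between 43.9 and 53.1 CPM in all libraries. Fut7 and Tpst2 were named after their values were seen, as the remaining steps. The related enzyme genes St3gal1, St3gal3, Fut4 and Tpst1 were called in no comparison. Their log2 fold changes at week 3 against naive mice were -0.10, -1.755, 0.40 and -0.54. B4galt1, a galactosyltransferase, was lower at week 1 (311 and 281 to 227 and 209 CPM, log2 -0.44, edgeR adjusted p = 0.0303). Glg1, which encodes another E-selectin ligand, ran at 112 and 105 CPM in naive mice, 79.8 and 75.5 CPM at week 1 and 141 and 120 CPM at week 3. It was lower at week 1 against naive mice (log2 -0.48, edgeR adjusted p = 0.0305) and higher at week 3 than at week 1 (0.75, edgeR adjusted p = 7.15e-04). Spn, the gene of CD43, was lower at week 3 against naive mice (81.6 and 71.9 to 52.7 and 56.0 CPM, log2 -0.50, edgeR adjusted p = 0.0115). The Spn call was lost without naive replicate 1 (0.0747) or week 3 replicate 1 (0.0830).

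**Figure D3:**
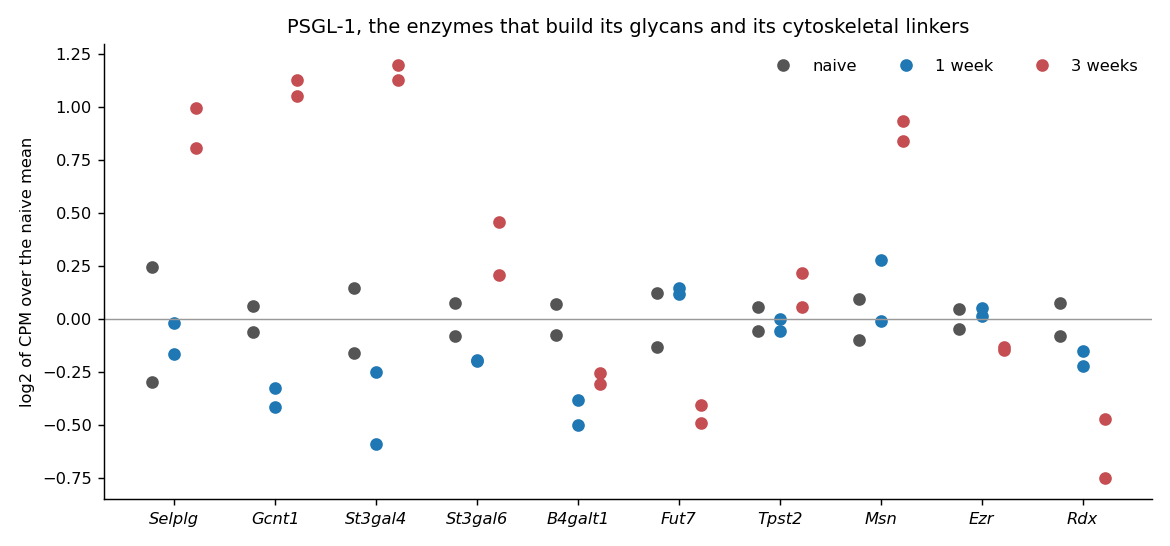
Selplg, glycan enzymes and cytoskeletal linkers, as log2 of each library's CPM over the naive mean of that gene; points are libraries, colored by group. Selplg, Gcnt1, St3gal4, St3gal6 and Msn have both week 3 libraries above the other 4, while Fut7, Ezr and Rdx have them below. Libraries did not overlap in 59.6% of all genes tested at week 3 against naive mice and in 63.8% against week 1. Ezr was called in no comparison, and St3gal6 and Fut7 were not called against naive mice.

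Among 14 tested genes for the linkage and shedding of CD44 and PSGL-1, 3 were higher and 4 lower at week 3 against naive mice, and 2 higher and 3 lower between week 3 and week 1. Msn encodes moesin, which ties the tails of PSGL-1 and CD44 to actin. Its levels were 323 and 369 CPM in naive mice, 419 and 343 CPM at week 1, and 661 and 618 CPM at week 3, a rise of 1.85-fold over naive mice (log2 0.89 ± 0.13, edgeR adjusted p = 3.19e-04). The related linker gene Ezr had log2 fold changes of 0.03, -0.14 and -0.17 with no call. Rdx, the gene of radixin, the remaining linker of this family, went the other way, from 36.5 and 32.7 CPM in naive mice to 24.9 and 20.5 CPM at week 3 (log2 -0.61, edgeR adjusted p = 0.00928), a call lost without naive replicate 1 or week 3 replicate 2 (up to 0.0837). Ezr and Rdx were named after their values were seen. Adam9, a sheddase gene, had 2 and 1 counts in naive mice, 22 and 3 at week 1, and 39 and 25 at week 3 (edgeR adjusted p = 0.00442 for week 3 against naive mice, 0.0506 without naive replicate 2). Cd74, which encodes the class II invariant chain that also pairs with CD44, was at 6.88 and 9.82 CPM in naive mice and 3.57 and 2.77 CPM at week 3 (log2 -1.40, edgeR adjusted p = 0.00286). Cd74 is abundant in B cells and dendritic cells, and the 9 B cell markers summed to between 47.1 and 58.5 CPM in naive mice, 47.9 and 57.1 CPM at week 1, and 13.9 and 15.7 CPM at week 3, with all 9 called lower at week 3 against naive mice. Lyve1, a hyaluronan receptor gene, had 52 and 39 counts at week 1 and 11 and 5 at week 3 (log2 -2.35, edgeR adjusted p = 0.00387).

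Proteins that promote or restrain the switch of integrins to their binding form make up a list of 19 tested genes. Flna and Itgb1bp1 are among its restraints, so the counts are not counts of activators alone. Of the 19, 2 were lower at week 1 against naive mice, and 4 were higher and 2 lower at week 3 against naive mice. Between week 3 and week 1, 8 were higher and 2 lower. Rassf5 encodes RAPL, a partner of Rap1 at the LFA-1 alpha tail. It had 482 and 416 CPM in naive mice, 231 and 244 CPM at week 1, and 586 and 523 CPM at week 3. This was 1.89-fold lower at week 1 than in naive mice (log2 -0.92 ± 0.12, edgeR adjusted p = 9.52e-04) and 2.33-fold higher at week 3 than at week 1 (log2 1.22 ± 0.12). Fermt3, the gene of kindlin-3, whose docking site lies in the Itgb2 tail shown above, had 72.4 and 69.7 CPM in naive mice, 65.3 and 62.9 CPM at week 1, and 99.6 and 111 CPM at week 3, 1.49-fold higher than in naive mice (log2 0.57 ± 0.12, edgeR adjusted p = 0.00387). Tln1, the gene of talin, was at 290 and 270, 211 and 219, and 282 and 264 CPM in the same order. Its difference between week 3 and week 1, log2 0.34 (edgeR adjusted p = 0.0392), was lost when any library other than naive replicate 2 was left out (0.0565 to 0.236), and also with library totals alone (log2 0.14, 0.387), no filter on low counts (0.0772) or the replicate number as a block (0.0546).

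Other genes of the same list went in both directions. Rasgrp2 encodes the exchange factor that loads Rap1 in neutrophils and platelets, and fell from 390 and 454 CPM in naive mice to 246 and 254 CPM at week 3 (log2 -0.75 ± 0.12, edgeR adjusted p = 5.03e-04). Its week 1 values were 428 and 406 CPM. Skap2, an adaptor for integrin activation, was at 519 and 612 CPM in naive mice, 439 and 473 CPM at week 1 and 805 and 758 CPM at week 3 (log2 0.78 between week 3 and week 1, edgeR adjusted p = 4.36e-04). Itgb1bp1, the gene of ICAP-1, a binder of the beta 1 tail, rose from 18.2 and 20.4 CPM to 34.7 and 35.5 CPM at week 3 (log2 0.86, edgeR adjusted p = 7.28e-04). Flna, the gene of filamin A, which competes with talin for beta tails, was lower at week 1 (1219 and 1127 to 867 and 890 CPM, log2 -0.42, edgeR adjusted p = 0.0314) and higher at week 3 than at week 1 (log2 0.51, edgeR adjusted p = 0.00398), and the latter was lost without week 1 replicate 1 (0.0623) or with library totals alone (0.0505). Of the 16 tested adaptors and kinases behind the integrin tails, 2 were higher and 2 lower at week 3 against naive mice. Zyx rose (213 and 233 to 329 and 324 CPM, log2 0.55, edgeR adjusted p = 0.00342). Vcl, the gene of vinculin, was lower (71.5 and 78.8 to 52.4 and 53.6 CPM, log2 -0.50, edgeR adjusted p = 0.00869), without a call when naive replicate 2 (0.0616) or week 3 replicate 1 (0.0587) was left out. Parvb, the gene of beta-parvin, was lower as well (12.03 and 11.3 to 5.20 and 6.23 CPM, log2 -1.03, edgeR adjusted p = 0.004).

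Among integrin subunits outside the 9 members, 11 of 21 were tested, and all 4 called at week 3 against naive mice were lower. Itgb7, a partner of Itga4 on lymphocytes, was at 22.4 and 29.6 CPM in naive mice, 20.4 and 26.6 CPM at week 1, and 5.89 and 6.61 CPM at week 3, 4.15-fold lower than in naive mice (log2 -2.05 ± 0.20, edgeR adjusted p = 1.55e-05). Like Itgb7, the summed B cell markers were lowest at week 3. Within each group, however, the library with the higher marker sum had the lower Itgb7. The part of B cells in the Itgb7 values was not tested. Itgb1, the other partner of Itga4, had 27.7 and 26.6 CPM in naive mice, 18.8 and 21.9 CPM at week 1, and 22.6 and 16.7 CPM at week 3, with no call (log2 -0.47, edgeR adjusted p = 0.0626 at week 3). Itga6, a laminin-binding subunit, fell from 25.3 and 22.0 CPM to 8.61 and 10.2 CPM at week 3 (log2 -1.33 ± 0.18, edgeR adjusted p = 1.82e-04). Itgb3 fell from 41.1 and 51.9 CPM to 25.8 and 30.2 CPM (log2 -0.73 ± 0.15, edgeR adjusted p = 0.00359), from week 1 values of 53.9 and 59.8 CPM. Itga2b, its platelet partner, was lower at week 1 (log2 -0.63, edgeR adjusted p = 0.0289) and week 3 (-0.79, 0.00348), and is itself 1 of 8 megakaryocyte and platelet markers, which summed to between 210 and 225 CPM in naive mice, 173 and 196 CPM at week 1, and 142 and 162 CPM at week 3, with 4 of 6 tested called lower at week 3. Itgb4 was the one gene of the 6 lists called higher at week 1, with 10 and 29 counts in naive mice and 68 and 85 at week 1 (log2 1.78 ± 0.43, edgeR adjusted p = 0.0243).

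Of the 6 genes called at week 1 against naive mice in these lists, the calls of Itgb4, Itga2b, B4galt1, Glg1 and Flna were each lost without naive replicate 1, without week 1 replicate 1 and without week 1 replicate 2. Those of Itga2b and Glg1 were also lost without naive replicate 2, and the adjusted p-values ran from 0.0553 to 0.221 in edgeR. Scaling by library totals alone also ended the calls of B4galt1 (0.0696), Glg1 (0.0637), Flna (0.0596) and Itga2b (0.0555). The call of Rassf5 held in every alternative and without any single library.

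Immunoglobulin-family and junctional genes include counter-receptors of the leukocyte integrins. Of 15 tested, 2 were higher and 5 lower at week 3 against naive mice, and 4 higher and 3 lower between week 3 and week 1. F11r, the gene of JAM-A, which LFA-1 can bind, had 17 and 18 counts in naive mice, 15 and 14 at week 1, and 318 and 181 at week 3. The rise over naive mice was 13.6-fold (log2 3.77 ± 0.32, edgeR adjusted p = 4.54e-06). Jaml, a junctional adhesion protein of leukocytes, had 522 and 510 CPM in naive mice, 400 and 310 CPM at week 1, and 73.5 and 153 CPM at week 3, 4.55-fold lower than in naive mice (log2 -2.19 ± 0.25, edgeR adjusted p = 5.57e-05). The 2 genes thus separated week 3 from the other groups in opposite directions. Cd47, an integrin-associated protein, was higher at week 3 than at week 1 (226 and 209 to 408 and 335 CPM, log2 0.77, edgeR adjusted p = 9.38e-04) and had 313 and 265 CPM in naive mice. Pecam1, which works in passage between endothelial cells, was between 67.0 and 85.9 CPM in all libraries and was not called.

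**Figure D4:**
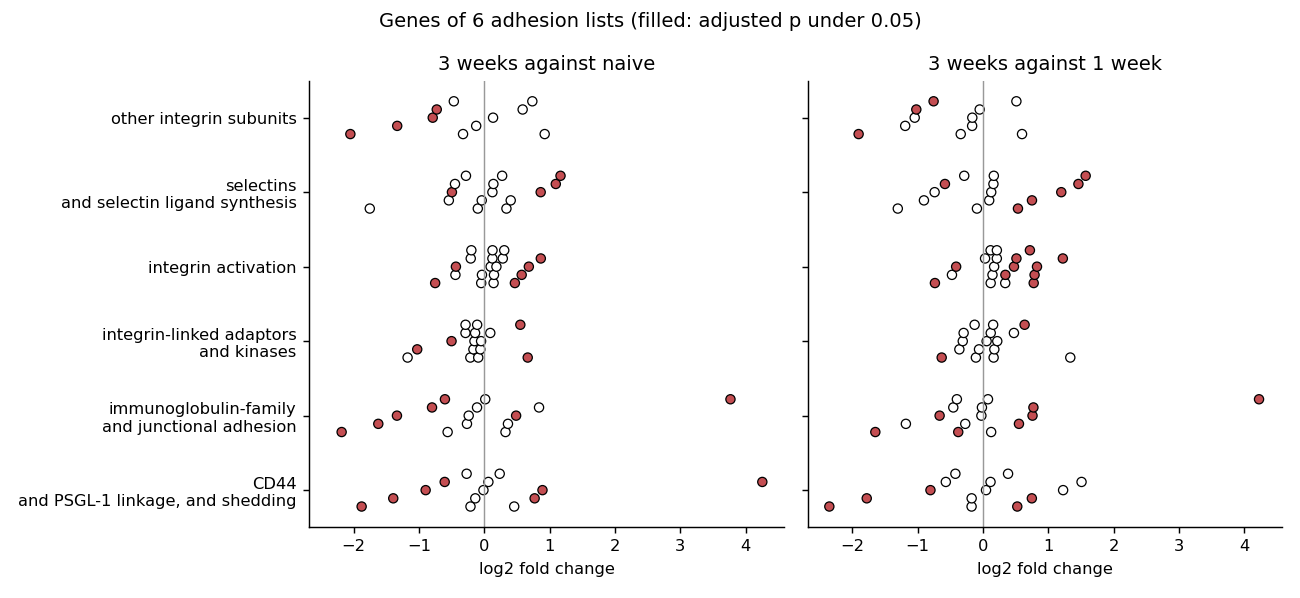
Log2 fold change of the 90 tested genes of 6 adhesion lists (rows; vertical offset within a row only separates points) at week 3 against naive mice and against week 1; filled points have an adjusted p under 0.05 in edgeR. F11r at 3.77 and Adam9, which had 2 and 1 counts in naive mice, lie farthest to the right in the first panel, Jaml at -2.19 and Itgb7 at -2.05 farthest to the left.

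The genes whose levels followed each member most closely were listed by Pearson's r of log2 CPM over the 6 libraries, among genes with a mean of at least 10 CPM. The libraries share their groups, so these values carry no p. For Selplg they were Ndufb8 and Tuba1a (both r = 0.997) and Arf1 (0.994), and Tuba1a, a tubulin gene, had 128 and 169 CPM in naive mice and 240 and 211 CPM at week 3. For Itgax they were Fgl2 (0.996), Mpzl3 (0.995) and Adgre5 (0.993). Adgre5 encodes CD97, an adhesion receptor in the junctional list above, and fell from 248 and 257 CPM in naive mice to 153 and 180 CPM at week 3 (log2 -0.60, edgeR adjusted p = 0.00253). For Itgam they were Ptp4a1 (0.991), Luc7l2 (0.989) and Rest (0.987), for Itgb2l Vamp5 (0.997), Nr4a1 (0.993) and Zfp276 (0.991), and for Cd44 Nek9 (0.993), Csnk1g2 (0.984) and Eif2s2 (0.983). For Itgal, Itga4, Itgb2 and Icam1 the closest genes were Frat2 (r = 0.975), Ube2e3 (0.964), Rab11b (0.972) and Ptgr2 (0.958). Among the members themselves, the highest r was 0.812, for Itgam and Cd44. Larger in size were the negative values of Itgb2l and Selplg (-0.842), Itga4 and Icam1 (-0.824) and Itga4 and Itgb2 (-0.814). Itgam and Itgb2, the subunits of Mac-1, had an r of -0.05 over the 6 libraries, where Itgb2 varied little.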

How the data were processed

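RNA of Ly6G-selected bone marrow cells was measured in 6 libraries. The authors deposited expected counts per gene from RSEM (version 1.2.31 in the submitters' processing notes, which also name Bowtie2, mm10 and DESeq2), here whole numbers without scaling between libraries. The methods name another RSEM version and shorter reads than the 75 bases of the labels, and purity was stated as over 95%. The 2 libraries per group were grouped by their labels.

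Identifiers were matched to GENCODE M21 (GRCm38, the mm10 build), 37570 of 38887. Genes were filtered by filterByExpr and tested by edgeR 4.0.16 in R 4.3.3 with TMM scaling. The SE of a log2 fold change was its size over the square root of F. Floors cover counting error only, and PCR duplicates were not separated from molecules.

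The 9 genes, the lists and the alternatives were chosen with earlier results of these data known. Named are all 9, up to 3 called genes per list and comparison by adjusted p, genes fixed by name (Itgb1, Tln1, Fermt3, Pecam1, Cd47, and another that is not reported here), the 3 nearest patterns per member (of which 1 is printed for Itgal, Itga4, Itgb2 and Icam1) and the most abundant marker of each list used. Other genes named were chosen after their values were seen. Alternatives were DESeq2 1.42.0, fits on the groups compared, other scaling, filters and thresholds, length and GC offsets, a replicate block and each library left out.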

Additional observations from a re-analysis of the deposited data

Results flagged for a closer look

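For 3 of the 9 genes the change from naive mice differed between week 3 and week 1. Since the naive term cancels, this is the comparison of week 3 with week 1 given above (edgeR, adjusted over all genes tested), in which 22.5% of all genes tested were called, and 3 of 9 lay near that share. In Selplg the week 3 change exceeded the week 1 change by 0.994 on the log2 scale. In Itgam the difference was 0.514, from -0.36 at week 1 to 0.16 at week 3. In Itgax it was -0.741, from -0.61 to -1.35, both below naive mice. The 2 changes share the naive libraries. With each library left out in turn, the call of Selplg held, while the adjusted p reached 0.168 for Itgam (without week 1 replicate 2) and 0.222 for Itgax (without week 3 replicate 1). Groups of 2 libraries were too small for a check of single outlying libraries.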

How the results depend on the processing

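Of 405 log2 fold changes of the 9 genes under alternatives, 370 kept their direction and their side of the threshold, 7 lost a call, 9 gained one and 19 changed direction, none of them in a called gene. The number of the 9 genes called at week 1 against naive mice rose from 0 to 1 with DESeq2 on all libraries or on the groups compared (Cd44), and with edgeR on the groups compared, no filter on low counts, or without either week 3 library (Itgax). At week 3 against naive mice it was 2 in every alternative. Between week 3 and week 1 it fell from 3 to 1 (Selplg) at an adjusted p under 0.01. With each library left out in turn, the 3 numbers ranged from 0 to 1, from 2 to 2 and from 1 to 3, and the numbers over all genes from 147 to 1145, from 1362 to 2392 and from 1502 to 2725. At an adjusted p under 0.01, 274, 1339 and 1481 genes were called in all, and without a filter 1537 at week 1 against naive mice. Itgb2 changed direction with library size only, to -0.0278 at week 3 against naive mice and -0.185 between week 3 and week 1, where no filter gave -0.012. Among uncalled values, leaving out single libraries turned directions within ranges of -0.272 to 0.313 (Icam1), -0.34 to 0.203 (Selplg) and -0.204 to 0.0477 (Itgal) at week 1 against naive mice, of -0.626 to 0.273 (Itga4), -0.205 to 0.0299 (Itgal), -0.0924 to 0.0231 (Cd44) and -0.947 to 0.123 (Icam1) at week 3 against naive mice, and of -0.0977 to 0.0953 (Itgb2), -0.17 to 0.104 (Itgal), -0.156 to 0.743 (Itga4) and -0.99 to 0.0796 (Icam1) between week 3 and week 1. The causes were not tested.

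Scaling by library size only moved the median gene by 0.05, -0.15 and -0.20 in the 3 comparisons and gave 575 higher and 263 lower, 890 and 1675, and 856 and 2136 calls, beside 518 and 461, 1471 and 1155, and 1586 and 1173 with TMM. Same-numbered libraries are different mice and their deviations did not correlate (r between 0.0101 and 0.0379). A replicate block gave 959, 2559 and 2709 calls and the same calls among the 9 genes. Among the pathway genes named, it ended the call of Tln1 between week 3 and week 1 (edgeR adjusted p = 0.0546) and gave calls of Adam9 in that comparison (0.0493) and of Cd47 at week 3 against naive mice (0.0465). Itgad was also called higher with the block in both of these comparisons.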
